A study of Ovis aries with 8 samples.

Results

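ALOX5AP, PTGS1 and PTGS2, genes of eicosanoid synthesis, were read by 5 of the 15008 non-control probes of an Agilent ovine array, and they are 3 of the 673 genes that could be named on it. The probes were found by name. ALOX5AP has 2 probes under its older name FLAP, both from the same expressed sequence tag. PTGS1 has 1 probe under its own symbol, and PTGS2 has 2 probes under the name PGHS-2. A search of gene names and descriptions found no further non-control probe for any of the 3 genes. The genes were selected on measured values: ALOX5AP was chosen by its log2 level, which differed between hypoxia and normoxia on these same arrays. That contrast is given for it as a description, with no test.

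RNA was taken from the carotid arteries of 8 fetal sheep, labelled with Cy3 and hybridised to 1 array per fetus. The labels put every fetus at gestation day 140. In the hypoxia group, 4 fetuses were carried by ewes moved at gestation day 30 to a field station at an elevation of 3801 m and kept there until day 135, and the sample titles put this exposure at 110 days. In the normoxia group, 4 fetuses were carried by ewes that stayed at the supplier's ranch at 300 m, and the ewes of both groups ate alfalfa pellets without restriction. The labels separate fetuses of a group by a replicate number alone and do not describe the animals, so the spread between arrays may be in part technical.

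Eicosanoids are signalling lipids made from arachidonic acid. In the leukotriene branch, ALOX5AP, also called 5-lipoxygenase activating protein, is the membrane protein that presents arachidonic acid to 5-lipoxygenase, and it is best known from myeloid cells and mast cells. In the prostanoid branch, the cyclooxygenases PTGS1 (COX-1) and PTGS2 (COX-2) turn arachidonic acid into prostaglandin H2, from which prostacyclin, thromboxane and the other prostaglandins are made. PTGS1 is expressed constitutively in many tissues, and PTGS2 is known as the inducible form. In an artery these products act on vascular tone, leukotrienes and thromboxane mostly as constrictors and prostacyclin as a dilator.

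Levels below are log2 processed intensities minus each array's 75th percentile, so a level of 0 is that percentile and a difference of 1 is a doubling. A level of one probe cannot be set against that of another, and comparisons are made within a probe across arrays. The 75th percentile of the processed intensity ranged from 97.9 on hypoxia 1 to 1387 on normoxia 3, and the percent of probes well above background from 59.6 on normoxia 4 to 94.8 on hypoxia 3. Same-numbered arrays of the groups deviated together, with correlations of 0.434 to 0.820 across probes. The smooth muscle genes CNN1, MYL6 and MYLK, which mark the arterial wall, were well above background on all 8 arrays. Their medians and those of other cell types are given with the cell markers. By limma, 0 of 11211 kept probes (0%) had a Benjamini-Hochberg adjusted p under 0.05 between hypoxia and normoxia. The smallest adjusted p was 0.998, and 413 probes (3.68%) had an unadjusted p under 0.05. The groups did not overlap at 301 probes (2.68%), 193 higher in hypoxia (1.72%) and 108 lower (0.963%), and 359 probes (3.2%) had a log2 fold change of -1 or lower.

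ALOX5AP was at lower levels in hypoxia than in normoxia by both probes. Averaged over the probes, its level was -1.76 ± 0.67 (SD, n = 4) in normoxia against -2.98 ± 0.23 (SD, n = 4) in hypoxia, a log2 difference of -1.22 and a 2.33-fold higher level in normoxia. It was lower in hypoxia in 4 of 4 same-numbered pairs, by 0.26, 1.51, 1.82 and 1.29 on the log2 scale for numbers 1 to 4. Of all kept probes 10.5% were lower in 4 of 4 pairs, and nothing is read from this count. The pair numbered 1 differed far less than the other 3, and in it hypoxia 1 was not well above background at either probe, nor normoxia 1 at A_70_P016782.

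Probe A_70_P016781 gave ALOX5AP levels of -2.07, -1.66, -1.16 and -1.44 on normoxia 1 to 4. Levels of -2.56, -2.99, -2.83 and -2.57 followed for hypoxia 1 to 4. The hypoxia values all lay below the normoxia values, with a gap of 0.49 between normoxia 1, the lowest of its group, and hypoxia 1, the highest of its own. Of the 11211 kept probes, 108 (0.963%) were without overlap and lower in hypoxia, and since this separation is why the gene was chosen, nothing is read from it. The log2 fold change was -1.15 (SE 0.27).

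Probe A_70_P016782 gave ALOX5AP levels of -3.43, -1.62, -1.42 and -1.31 on normoxia 1 to 4. Hypoxia 1 to 4 were at -3.45, -3.33, -3.40 and -2.75. Here the groups overlapped, since normoxia 1 lay among the hypoxia arrays while the other normoxia arrays lay above all of them. The log2 fold change was -1.29 (SE 0.50), larger than that of the first probe and with a wider error.

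The probes of ALOX5AP disagreed most on normoxia 1, a dim array. Processed intensity at A_70_P016781 was 29.9 there, and at A_70_P016782 it was 11.7, below the 17.2 of the dimmest probe called well above background on that array. On hypoxia 1 both probes were below this limit, at 16.6 and 8.97 against 16.7. On the other 6 arrays both were well above background, with intensities of 34.5 on hypoxia 2 to 621 on normoxia 3. Both arrays numbered 1 were also left out, a choice made after these values were seen. The mean of the probes was then -1.44 ± 0.19 (SD, n = 3) in normoxia against -2.98 ± 0.28 (SD, n = 3) in hypoxia, a difference of -1.54. The groups then did not overlap. The share of all probes without overlap at 3 arrays a group was not counted, so nothing is read from this. The ALOX5AP level of hypoxia 1 is thus not well above background at either probe.

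**Figure D1:**
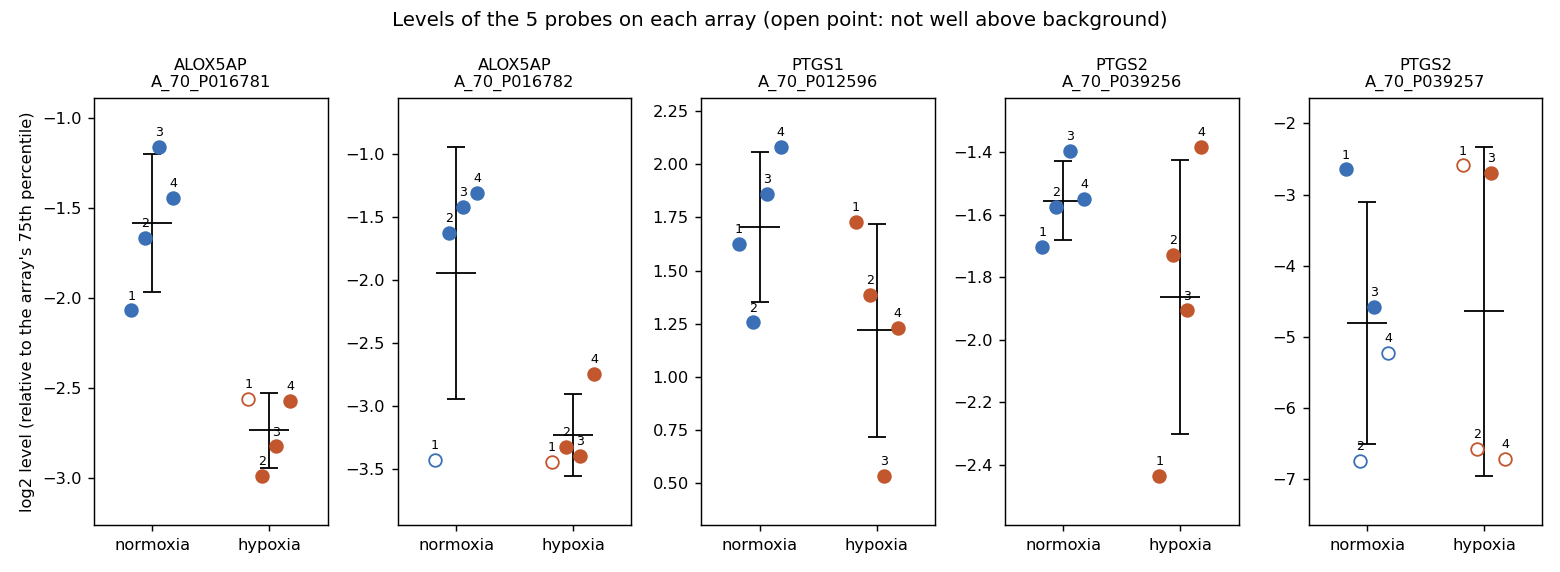
Log2 level, relative to each array's 75th percentile, at the 5 probes of ALOX5AP, PTGS1 and PTGS2 in 4 normoxia and 4 hypoxia arrays, numbered by replicate, with bars for mean ± SD and an own scale in each panel. The groups do not overlap at ALOX5AP probe A_70_P016781, normoxia 1 sits at -3.43 among the hypoxia arrays at A_70_P016782, and PTGS1 and PTGS2 overlap.

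PTGS1, the constitutive cyclooxygenase, was well above background on all 8 arrays. Its levels were 1.63, 1.26, 1.86 and 2.08 on normoxia 1 to 4. Hypoxia 1 to 4 were at 1.73, 1.38, 0.53 and 1.23. The groups overlapped, with hypoxia 3 alone well below the rest and hypoxia 1 above normoxia 1 and 2. The normoxia mean was 1.71 ± 0.35 (SD, n = 4), and the hypoxia mean was 1.22 ± 0.50 (SD, n = 4). The log2 fold change of -0.49 (SE 0.33) did not pass by limma (adjusted p = 0.998), and its 95% interval ran from -1.25 to 0.28. Hypoxia was higher in pairs 1 and 2, by 0.10 and 0.13, and lower in pairs 3 and 4, by 1.33 and 0.85. Without hypoxia 3 the log2 fold change was -0.26.

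PTGS2, the inducible cyclooxygenase, was measured by probe A_70_P039256 on all 8 arrays. Its levels were -1.70, -1.57, -1.40 and -1.55 on normoxia 1 to 4. Hypoxia 1 to 4 were at -2.44, -1.73, -1.91 and -1.38. The normoxia arrays lay close together while the hypoxia arrays spread around them, with hypoxia 1 the lowest and hypoxia 4 the highest of the 8. The normoxia mean was -1.56 ± 0.13 (SD, n = 4), and the hypoxia mean was -1.86 ± 0.44 (SD, n = 4). The log2 fold change of -0.31 (SE 0.28) did not pass by limma (adjusted p = 0.998), with a 95% interval from -0.95 to 0.34. Hypoxia 1, where the intensity was 18.1, close to the limit of that array, moved it most, and without that array it was -0.12. Without hypoxia 4 it was -0.47. Hypoxia was lower in pairs 1, 2 and 3, by 0.73, 0.16 and 0.51, and higher in pair 4, by 0.17.

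The second PTGS2 probe, A_70_P039257, was well above background on normoxia 1, normoxia 3 and hypoxia 3 only and did not enter the fit. Its levels were -2.65 on normoxia 1, -4.58 on normoxia 3 and -2.70 on hypoxia 3. On normoxia 2 and hypoxia 2 it lay at -6.75 and -6.57, near the floor of those arrays. Normoxia 4, at -5.23, and hypoxia 1, at -2.59, were not well above background either. Over all arrays it gave a log2 difference of 0.16 with SDs of 2.31 and 1.70 (n = 4), which says little about the direction. Only A_70_P039256 therefore carries the PTGS2 values used below.

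Differences between genes within an array cancel the scaling of that array, and they set the leukotriene branch against the prostanoid branch. The size of such a difference depends on the probes and has no meaning of its own, and only its change between arrays does. ALOX5AP minus PTGS2 was -1.05, -0.07, 0.11 and 0.18 on normoxia 1 to 4. On hypoxia 1 to 4 it was -0.57, -1.43, -1.20 and -1.27. In pairs 2, 3 and 4 it was lower in hypoxia by 1.36, 1.31 and 1.45, and in pair 1 it was higher by 0.48. Pair 1 is the pair in which ALOX5AP lay near background and PTGS2 was at its lowest. The normoxia mean was -0.21 ± 0.57 (SD, n = 4) and the hypoxia mean -1.12 ± 0.38 (SD, n = 4), a difference of -0.91, and the groups overlapped. Without both arrays numbered 1 the difference was -1.37. That choice was made after the values were seen and leaves out the pair that went the other way. The groups then did not overlap. The share of all probes without overlap at 3 arrays a group was not counted, so nothing is read from this.

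ALOX5AP minus PTGS1 was -4.38, -2.90, -3.15 and -3.45 on normoxia 1 to 4. On hypoxia 1 to 4 it was -4.73, -4.54, -3.65 and -3.89. It was lower in hypoxia in 4 of 4 pairs, by 0.36, 1.64, 0.49 and 0.43, and the difference of group means was -0.73. PTGS1 was itself lower in pairs 3 and 4. PTGS2 minus PTGS1, within the prostanoid branch, was -3.26 ± 0.33 (SD, n = 4) in normoxia against -3.08 ± 0.78 (SD, n = 4) in hypoxia. It was higher in hypoxia in pairs 3 and 4 and lower in pairs 1 and 2, and its group difference of 0.18 turned to -0.25 with quantile normalization, -0.10 with cyclic loess and -0.035 without hypoxia 3. Scaling by a constant per array cannot change the group difference of ALOX5AP minus either cyclooxygenase. Normexp, quantile normalization and cyclic loess can. In that order, they gave -0.41, -1.06 and -1.04 for ALOX5AP minus PTGS1. For ALOX5AP minus PTGS2 they gave -0.56, -0.81 and -0.93. None of these differences was tested, since the choice of ALOX5AP is part of them.

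**Figure D2:**
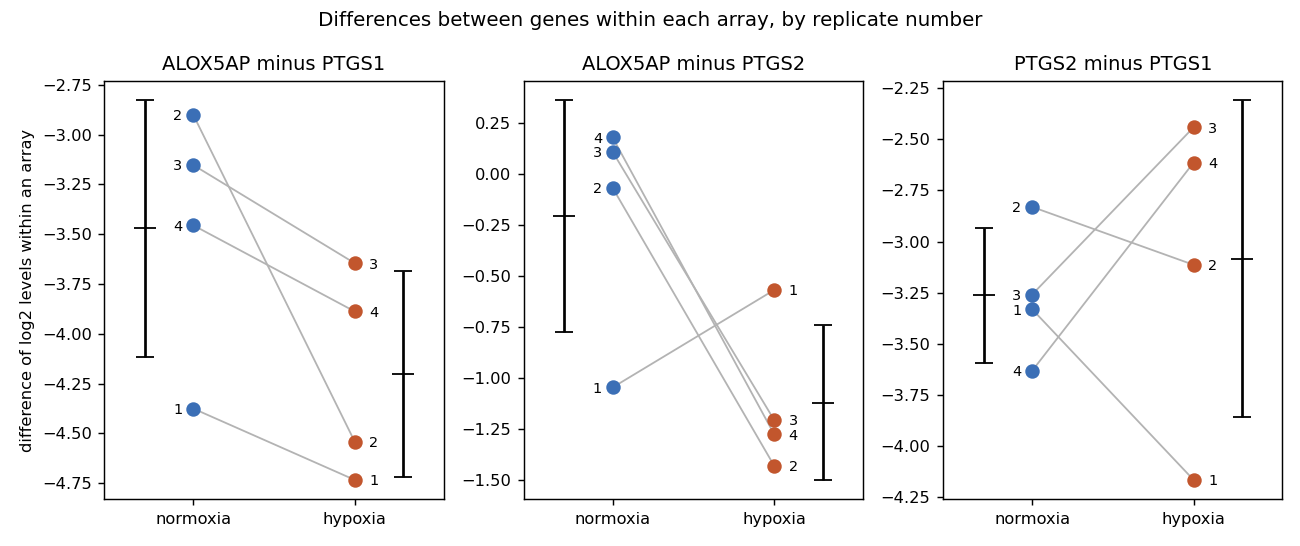
Difference of log2 levels between 2 genes within each array, for ALOX5AP minus PTGS1, ALOX5AP minus PTGS2 and PTGS2 minus PTGS1, with lines joining same-numbered arrays and bars for group mean ± SD (n = 4). ALOX5AP minus PTGS2 is lower in hypoxia in pairs 2, 3 and 4 and higher by 0.48 in pair 1, while PTGS2 minus PTGS1 moves both ways.

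Slides hold the groups unevenly, and the ALOX5AP difference was smaller within them than over all arrays. Normoxia 1 and hypoxia 1, 2 and 3 share slide 1, normoxia 2 and hypoxia 4 share slide 2, and normoxia 3 and 4 are alone on slide 3. Within slide 1 the mean of the ALOX5AP probes differed by -0.34, and within slide 2 by -1.01. By probe, A_70_P016781 gave -0.72 and -0.91, while A_70_P016782 gave 0.038 and -1.12. The slide 1 value rests on normoxia 1 as its sole normoxia array, on which A_70_P016782 was not well above background. With slide as a block, which weighs these within-slide values, ALOX5AP was at -0.61, against -1.22 without the block. ALOX5AP minus PTGS1 was at 0.068 within slide 1 and -0.99 within slide 2, and ALOX5AP minus PTGS2 at -0.022 and -1.20. PTGS1 was at -0.41 and -0.027 and PTGS2 at -0.32 and 0.19 in slides 1 and 2. The part of the slide in these results was not tested beyond these values.

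**Figure D3:**
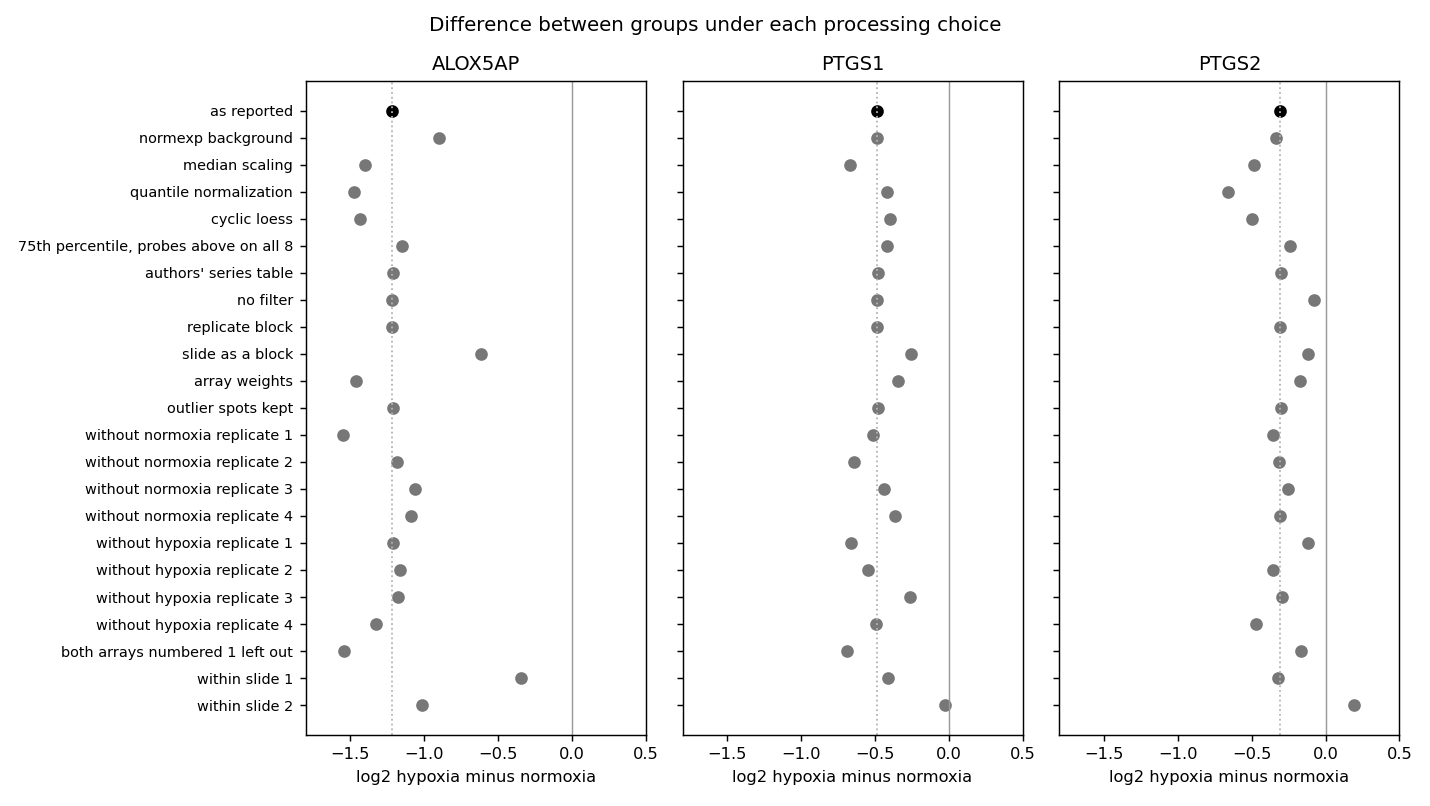
Log2 hypoxia minus normoxia for ALOX5AP (mean of its probes), PTGS1 and PTGS2 (x axis) under each processing choice (rows), with the reported value in black and as a dotted line. ALOX5AP runs from -1.55 without normoxia 1 to -0.34 within slide 1, and PTGS2 crosses 0 within slide 2, at 0.19.

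Other genes of the eicosanoid pathway were few on the array. Of 18 listed genes of prostanoid synthesis and breakdown, 4 were on the array and measured, PTGS1, PTGS2, PTGDS and SLCO2A1. Of 10 prostanoid receptors, 5 were on the array and 2 were measured, PTGFR and PTGER3. Of 19 genes of the leukotriene and lipoxygenase branch only ALOX5AP could be named, and of 22 genes of arachidonate release none. ALOX5, LTA4H and the leukotriene receptors were thus not analysed here. Among PTGDS, SLCO2A1, PTGFR and PTGER3, 2 had log2 fold changes above 0 and 2 below, and 0 passed by limma. The median log2 fold change was -0.27 over the 4 genes of synthesis and breakdown and -0.34 over the 2 receptors, against -0.02 over all 11211 kept probes, of which 51.7% were below 0. Of those probes 5794 were below 0 and 5417 above, a split that was 8899 and 2312 with normexp and 7287 and 3924 with median scaling. With 1 value for each of PTGDS, SLCO2A1, PTGFR and PTGER3, the median of these 4 was -0.077.

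PTGDS, the lipocalin-type synthase that makes prostaglandin D2, was bright on every array. Normoxia 1 to 4 were at 7.46, 7.69, 7.10 and 7.78, and hypoxia 1 to 4 at 7.14, 7.66, 7.10 and 7.21. It was lower in hypoxia in 4 of 4 pairs, by 0.01 to 0.57, a property it shared with 1172 of the kept probes (10.5%), and the groups overlapped. Its log2 fold change of -0.23 (SE 0.26) had a 95% interval from -0.84 to 0.37, and limma gave an adjusted p of 0.998.

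SLCO2A1, the prostaglandin transporter that clears prostaglandins into cells, was read by 1 probe, printed at several spots that were averaged. It was at -0.97, -4.75, -2.26 and -4.21 on normoxia 1 to 4. On hypoxia 1 to 4 it was at -1.73, -3.10, -1.57 and -5.46. It was well above background on 4 hypoxia arrays and 2 normoxia arrays, normoxia 2 and 4 falling short. Arrays numbered 1 and 3 were high in both groups and those numbered 2 and 4 low, a spread of 4.49 that dwarfed the log2 fold change of 0.08 (SE 1.11).

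PTGFR, the receptor of prostaglandin F2 alpha, showed the same division. It was at -1.57, -4.14, -2.50 and -5.15 on normoxia 1 to 4, and on hypoxia 1 to 4 at -2.33, -6.42, -1.94 and -6.78. Of the 4 arrays of a group, 3 read it well above background in normoxia and 2 in hypoxia. Its log2 fold change of -1.03 (SE 1.34) had a 95% interval from -4.11 to 2.06. PTGER3, the EP3 receptor of prostaglandin E2, was measured by both of its probes on 3 arrays of each group. Its log2 fold changes were 0.22 (SE 0.57) at A_70_P041076 and 0.49 (SE 0.70) at A_70_P041077, with overlap between groups at both. In pair 1 neither array was well above background at either probe. There A_70_P041076 was lower in hypoxia by 1.36 and A_70_P041077 higher by 0.27. In pairs 2, 3 and 4 both were higher in hypoxia, A_70_P041077 by 0.01 to 0.85. The share of all probes higher in these pairs was not counted, and nothing is read from them. PTGER1, PTGER2 and PTGER4, the other receptors of prostaglandin E2, were well above background on 0 to 3 arrays at each of their probes and were left out. CYP4F21, a prostaglandin omega-hydroxylase noted after the lists were made, was above background on 2 arrays.

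**Figure D4:**
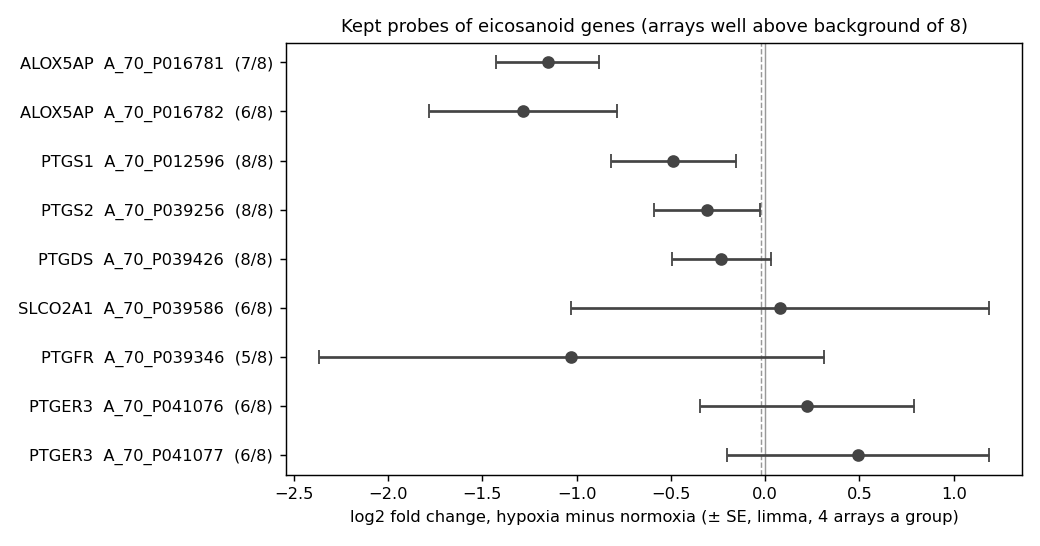
Log2 fold change, hypoxia minus normoxia, with the SE from limma (4 arrays a group), for the 9 kept probes of eicosanoid genes, with the number of arrays well above background after each name and a dashed line at the median of all kept probes, -0.02. The ALOX5AP probes lie at -1.15 and -1.29, and PTGFR, at -1.03, has an SE of 1.34.

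Markers of the cells that could carry these genes were set beside them, since in whole artery fewer cells of a type and less RNA per cell cannot be told apart. Of 46 listed leukocyte markers, 18 were on the array and 14 were measured, of which 10 were below 0 and 4 above, 0 passed by limma, and the median log2 fold change was -0.12. The summed linear level of the 14 markers was 1.37 to 6.17 in hypoxia and 2.33 to 5.99 in normoxia, in units of each array's 75th percentile. It was highest on hypoxia 1 and normoxia 1, at 6.17 and 5.99. These were also the dimmest arrays, with 75th percentiles of 97.9 and 125, and ALOX5AP was at or near background there. Several markers were dim as well: the kept CD3D probe was well above background on 4 arrays and the LYZ probes on 4 and 5. Nothing is read from the sum on these arrays. Of 21 myeloid and mast cell markers 7 were measured, with 5 below 0 and a median of -0.14, and of 13 lymphocyte markers 3 were measured, with 3 below 0 and a median of -0.14. The leukocyte median was not stable in sign or size. It turned above 0 when 1 of 4 arrays was left out, to 0.52 (normoxia 1), 0.05 (normoxia 3), 0.08 (hypoxia 2) or 0.55 (hypoxia 4). It was further below 0 without normoxia 2 (-0.60), normoxia 4 (-0.38), hypoxia 1 (-0.81) or hypoxia 3 (-0.47), and was -0.71 with normexp. With slide as a block it was -0.92, with 14 of 14 markers below 0, where ALOX5AP was at -0.61. Of all 11211 kept probes, 6408 were below 0 in that setting. Within slide 1 the leukocyte median was -1.10, with 13 below 0, where ALOX5AP was at -0.34. There 6577 of the 11211 kept probes were below 0, with a median of -0.17. Within slide 2 the leukocyte median was -0.92, where ALOX5AP was at -1.01. The leukocyte median was thus lower than the ALOX5AP difference with slide as a block and within slide 1, where normoxia 1 was the sole normoxia array.

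FCER1G, an Fc receptor subunit of myeloid and mast cells, had the smallest unadjusted p among them. Its probes gave log2 fold changes of -0.72 (SE 0.27) and -0.36 (SE 0.24). At the first the groups did not overlap, as at 108 kept probes (0.963%) lower in hypoxia. ITGB2, the beta subunit of leukocyte integrins, was at -0.88 (SE 0.50) and -0.95 (SE 0.48). It was lower in hypoxia in 4 of 4 pairs at both probes, as were 10.5% of all kept probes. Nothing is read from the separation of FCER1G or the pairs of ITGB2. TYROBP, an adaptor of myeloid receptors, was at -0.21 (SE 0.41) and -0.13 (SE 0.45), and it is named here after its values were seen. LYZ, the lysozyme of myeloid cells, was at -0.17, and the T cell receptor subunits CD3E and CD3D at -0.70 and -0.14. ALOX5AP minus the mean of the 14 leukocyte markers was 0.30 ± 1.66 (SD, n = 4) in hypoxia against 1.36 ± 1.72 (SD, n = 4) in normoxia, a difference of -1.06. It was lower in hypoxia in 3 of 4 pairs, by 0.13, 1.77 and 2.34 in pairs 1 to 3, and higher by 0.018 in pair 4. ALOX5AP minus FCER1G differed between groups by -0.68 and was lower in hypoxia in 4 of 4 pairs, by 0.17 to 1.32. ALOX5AP minus TYROBP differed by -1.05, also lower in 4 of 4 pairs. All of these differences overlapped between groups. ITGB2, at -0.91 over its probes the lowest of the 14 leukocyte markers, was not subtracted from ALOX5AP, which was at -1.22. In pairs 1 to 4 ALOX5AP differed by -0.26, -1.51, -1.82 and -1.29. ITGB2 differed by -1.09, -0.53, -0.84 and -1.07 at A_70_P030171, and by -0.0040, -1.23, -0.86 and -1.69 at A_70_P030172. ALOX5AP was thus lower by more than both ITGB2 probes in pairs 2 and 3 only. It was lower by less than A_70_P030171 in pair 1 and by less than A_70_P030172 in pair 4. These differences were not tested. The part of leukocyte content in the ALOX5AP values was not tested.

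Of the other markers, the 3 measured smooth muscle genes had a median log2 fold change of -0.54, all below 0. Among them MYLK was at -0.54 and CNN1 at -0.62. The 7 measured endothelial genes had a median of 0.47, with 6 above 0, and the endothelial nitric oxide synthase NOS3 was at 1.12. Both probes of TIE1, an endothelial receptor, exceeded background clearly on 3 hypoxia arrays but 1 normoxia array. It was thus kept through the group in which it was higher, and no fold is given for it. The endothelial count and median include TIE1, so nothing is read from them. The 4 fibroblast genes had a median of 0.89, with 3 above 0, and the collagens COL3A1 and COL1A1 were both at 0.96. The COL3A1 value is the mean of 3 probes that differed, at 1.80 (SE 0.81), 0.53 (SE 0.64) and 0.54 (SE 0.60). HBB, a haemoglobin chain, was at 0.39 and AHSP, its partner chaperone, at 0.13, and the sole platelet gene named, ITGB3, was above background on 1 array. Of 11 inflammatory mediators on the array 7 were measured, with 5 below 0 and a median of -0.25. NOS2, the inducible nitric oxide synthase, was at -0.92, the mean of probes at -1.36 (SE 1.62) and -0.49 (SE 1.42). Each of these was well above background on 2 hypoxia arrays, and a NOS2 probe that was not kept gave 0.26. ICAM1, an adhesion molecule induced by cytokines, was at 0.43 (SE 0.41). By limma 0 members of these lists passed.

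Among 517 other named genes with a kept probe, those whose level over the 8 arrays was most like each member's are given as a description. Among the genes closest to ALOX5AP were CAST (calpastatin), ATP1B1 (a sodium pump subunit), LGMN (a lysosomal protease) and ST3GAL4, with Pearson r of 0.921, 0.886, 0.808 and 0.723. Their own log2 fold changes were -0.44, -0.60, -0.43 and -0.28, so the group difference enters these values, and with group means taken out r was 0.882 for CAST and 0.496 for ST3GAL4. PTGS1 was closest to AQP8, BAD, RTP4, NOX5 and RPL14, with r from 0.867 down to 0.767. Among those closest to PTGS2 were SLC17A5, RPN2, CYP2J and FZD2, with r from 0.934 down to 0.870. CYP2J belongs to a cytochrome P450 subfamily whose enzymes oxidise arachidonic acid, and its log2 fold change was -0.39. All these values share the 8 arrays and their division by replicate number.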

How the data were processed

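The authors scanned 1 array per fetus (design 019921) and deposited linear intensity per spot, made by Feature Extraction 9.5.3.1 of Agilent with protocol GE1-v5_95_Feb07, per the file headers. That software had already subtracted background and spatial trend from the processed intensity. The authors' series table holds a ratio of processed intensity to a value close to each array's 75th percentile, with a floor of 0.01. This was found from the values, and its log2 was used as an alternative. Its flags for detection, saturation and outliers were used.

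Of 15744 spots an array, 536 controls and the outlier spots were left out, and 72 probes without a value on every array were dropped. The log2 processed intensity minus the array's 75th percentile was averaged per probe. A probe was kept (11211 of 15008) if well above background on at least 4 of 8 arrays. No member spot was saturated. Names came from the files and from RefSeq genes of ARS-UI_Ramb_v3.0, used for names only, for 1173 probes. The groups were compared per probe in R 4.3.3 with limma 3.58.1 (lmFit, eBayes), with Benjamini-Hochberg adjustment. The procedure was tested on simulated data. A gene's value is the mean of its kept probes.

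Named are every probe of the 3 genes, every listed eicosanoid gene on the array, the 5 genes most like each member and, for each marker list, the 2 genes with the smallest p. Some genes that this rule names are not reported here. The members, lists and tests were chosen with earlier results of these data known. The replicate numbers were taken to pair arrays, because same-numbered arrays deviated from their group means together (correlations of 0.820, 0.726, 0.584 and 0.434). No label gives the meaning of the numbers, and normoxia 2 was closer to hypoxia 4 (0.801). With the replicate number as a block, 1338 probes had an unadjusted p under 0.05, against 413 without it, and 0 passed in both. Background correction, scaling, filters, blocks, array weights and left-out arrays were varied.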

Additional observations from a re-analysis of the deposited data

Results flagged for a closer look

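Within groups of 4 arrays, 30 sets of values were examined for a sample far from the other 3, and 2 stood apart, where chance gives about 1 in 20 (Dixon's criterion). Both were at ALOX5AP probe A_70_P016782. Normoxia 1 was at -3.43, while the other 3 normoxia arrays lay between -1.62 and -1.31, and it was not well above background there. Hypoxia 4 was at -2.75, while the other 3 hypoxia arrays lay between -3.45 and -3.33, a gap that only just passed the criterion. At the other ALOX5AP probe neither array stood apart.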

How the results depend on the processing

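Over 23 alternatives, 0 probes passed by limma, the adjusted p staying above 0.05, while the count at an unadjusted p under 0.05 ran from 24 with normexp to 1365 with array weights. That count was 413 as reported, 138 with median scaling, 1338 with the replicate block, 199 with slide as a block and 189 within slide 1. Without 1 array it ran from 174 (hypoxia 3) to 616 (normoxia 3). The 3 genes and 3 within-array differences gave 136 values, of which 126 moved by less than the spread between replicates, 5 by more, and 5 turned. Some of the 126 could not move. Scaling by a constant per array cancels in the within-array differences, and the replicate block cannot change a group difference. ALOX5AP moved to -0.61 with slide as a block and -0.34 within slide 1, PTGS1 to -0.027 within slide 2, and PTGS2 to -0.66 with quantile normalization and 0.19 within slide 2, as did its probe. Within slide 1, ALOX5AP minus PTGS2 moved to -0.022, ALOX5AP minus PTGS1 turned to 0.068 and probe A_70_P016782 to 0.038. PTGS2 minus PTGS1 turned to -0.25 with quantile normalization and -0.10 with cyclic loess, and ran from -0.035 (without hypoxia 3) to 0.54. Without 1 array, ALOX5AP stayed between -1.55 and -1.06, PTGS1 between -0.66 and -0.26, and PTGS2 between -0.47 and -0.12. Since every replicate number has an array of both groups, the replicate block left every group difference as it was, and it changed no call. The median of the other eicosanoid genes turned to 0.24 with array weights and to 0.078 without both arrays numbered 1, and ran from -0.33 to 0.00310 without 1 array. The leukocyte median ran from -0.81 to 0.55 without 1 array and from -1.10 (within slide 1) to 0.55 over all 23 alternatives. Causes of these moves were not tested. All features shifted to a median log2 fold change of -0.32 (normexp), -0.20 (median scaling) and -0.10 (slide block), and ALOX5AP was at -0.90 with normexp. ALOX5AP could not be given with the filter on all 8 arrays. Signal over background limits ALOX5AP on the arrays numbered 1 and the second PTGS2 probe on 5 arrays.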
